A study of Mus musculus with 2 samples.

Results

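The 6 noncoding RNA genes described here were measured in newborn mouse liver: Malat1, Neat1 and Gas5, which give long noncoding RNAs, and Rn7sk, Rmrp and Rpph1, which give short structural RNAs. They were taken by gene symbol from a list drawn up with earlier results of these libraries known, with no threshold on a measured value, and are 6 of the 43346 genes with an Ensembl identifier (69691 features in all). The 2 libraries come from pup 1 (replicate 1) and pup 3 (replicate 2), each from a single liver. Both pups were mice of the B6NCrl strain at postnatal day 0, with sex not recorded and no allele or treatment named. Each library was made from 13 pg of total RNA above 200 nt, an amount equal to 1 cell, with spike-in RNAs added, so each value averages over the cells of a whole liver although the assay is called single cell RNA-seq. The labels name separate livers but carry a single donor entry for both, so animal and technical spread cannot be told apart. There is 1 group and no contrast, and every difference given here lies between 2 libraries, described without a test.

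Malat1 and Neat1 are retained in the nucleus. Malat1 gathers in nuclear speckles, bodies rich in splicing factors, and Neat1 is the scaffold of paraspeckles, which form around its long form and not around its short one. Gas5 is spliced, carries box C/D small nucleolar RNAs (snoRNAs) in its introns and gives a spliced RNA that nonsense-mediated decay removes when it is translated. Rn7sk (7SK RNA) holds the elongation kinase P-TEFb inactive in a protein complex. Rpph1 is the RNA of RNase P, which trims the leader of precursor tRNAs, and Rmrp is the related RNA of RNase MRP, which takes part in ribosomal RNA processing. RNA polymerase III makes Rn7sk, Rmrp and Rpph1, and none of these carries a poly(A) tail.

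With the transcript lengths of the deposited tables, the members ranged from among the most abundant genes of these libraries to no counts at all. Levels per length are in TPM (transcripts per 1000000, spike-ins removed), and levels per library are in CPM (expected counts per 1000000 endogenous counts, with no length correction). Malat1 and Gas5 were high in both libraries, at 776 ± 614 and 458 ± 130 TPM (mean ± SD, n = 2). Rn7sk at 65.2 ± 64.6 TPM, Rpph1 at 32.2 ± 28.1 TPM and Neat1 at 17.6 ± 24.4 TPM had a spread close to or above their mean, and Rmrp had no counts. The order of levels therefore differed between the pups. From high to low it ran Gas5, Malat1, Rn7sk, Rpph1, Neat1 in pup 1 and Malat1, Gas5, Rpph1, Neat1, Rn7sk in pup 3. In the order of the means, Gas5 and Rn7sk were apart by more than their SDs, and the ranges of Malat1 and Gas5, of Rn7sk and Rpph1, and of Rpph1 and Neat1 overlapped.

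**Figure D1:**
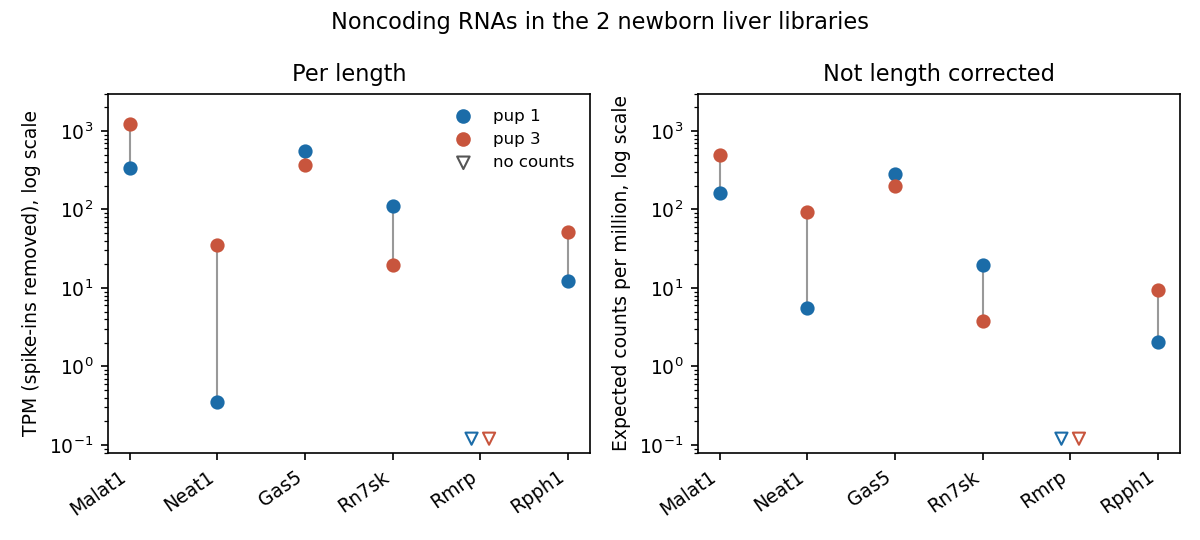
Levels of the 6 noncoding RNAs in each library, in TPM on the left and in CPM on the right, both on a log scale, with 1 point per library and a line joining the libraries of a gene. Gas5 was closest between the pups, Neat1 was farthest apart, and the open triangles mark the absence of counts for Rmrp.

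At 1 TPM or more, 4 members were found in pup 1 and 5 in pup 3, with 4 found in both (Malat1, Gas5, Rn7sk and Rpph1). Over all 43346 genes, 8.2% reached 1 TPM in both libraries. Together the 6 genes held 0.102% of endogenous TPM in pup 1 and 0.168% in pup 3. The word abundant in the name under which the list was drawn up holds for Malat1 (rank 345 of all genes by TPM in pup 1 and 92 in pup 3) and Gas5 (ranks 205 and 359), with the transcript lengths of the deposited tables. These lengths matter for the levels and the order. With all counts on the longest transcript, Malat1 stood at 31.1 and 87.6 TPM and Gas5, above it in both pups, at 150 and 97.7 TPM. In pup 1 this level of Malat1 lies below the 111 TPM of Rn7sk, which ranked 1011. Calling Malat1 abundant therefore rests on the deposited lengths. The ranks were lower for Rpph1 (4280 and 2049), Rn7sk (1011 and 3800) and Neat1 (6224 and 2993). Rn7sk and Rpph1 carry no poly(A) tail, and full-length Malat1 and the long form of Neat1 end in an A-rich tract in its place. How these ends bear on counting was not tested. All ranks given here describe these libraries and not abundance in liver cells.

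Depth was 56959836 expected counts in the library of pup 1 and 35973980 in that of pup 3. Of these, 54817565 and 34792898 were endogenous, so a count of 0 allows up to 0.0547 and 0.0862 CPM (3 counts per library). Intervals on counts are exact Poisson intervals at 95% and, like these floors, cover counting error only, since PCR copies were not told apart by molecular identifiers. Defining markers of hepatocytes (6 of 6), erythroid cells (5 of 5), neutrophils (3 of 3), Kupffer cells (3 of 3) and mesenchymal cells (3 of 3) were at 1 TPM or more in both libraries, as were 2 of 3 endothelial markers. Of the 3 brain markers 1 was (Mbp, at 6.75 and 17.2 TPM), and of the 3 muscle markers none was. In whole-tissue RNA, fewer cells of a type and less RNA per cell cannot be told apart.

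Differences between these libraries were common over all genes. Of the 8120 genes whose expected counts averaged 10 or more, 67.6% were at least 2-fold apart on the log2(TPM + 1) scale, with 33.1% at least 2-fold higher in pup 3 and 34.5% at least 2-fold lower. Rmrp did not pass this minimum. Of the other 5 members, 4 were at least 2-fold apart: Malat1, Neat1 and Rpph1 were higher in pup 3 and Rn7sk was lower. Their median log2 ratio of pup 3 over pup 1 was 1.82, and that of the 8120 genes was -0.04. The share of genes at least 2-fold apart was 75.5% at a mean of 10 to 100 TPM, the range of Neat1, Rn7sk and Rpph1, and 35% at 100 to 1000 TPM, the range of Malat1 and Gas5. With 5 genes, a count of 4 is near these shares and shows nothing particular to the members.

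**Figure D2:**
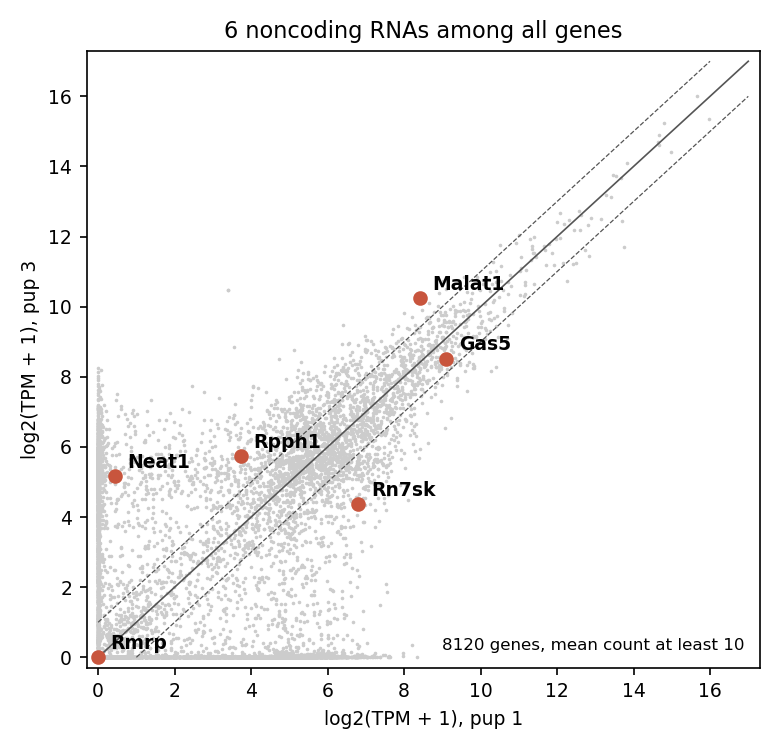
Level of every gene in pup 1 (x axis) against pup 3 (y axis), both as log2(TPM + 1), with 8120 genes in grey and the 6 noncoding RNAs in red. The solid line marks equal levels and the dashed lines a 2-fold difference, and Gas5 is the member with counts that lies between the dashed lines.

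Malat1, the speckle RNA, had the highest mean of the members in deposited TPM, though Gas5 was above it with all counts on the longest transcripts. The gene (ENSMUSG00000092341.2) lies on the minus strand at chr19:5795690-5802672 of GRCm38, is annotated as a lincRNA and has 5 listed transcripts of 485 to 6983 nt. It had 8949 expected counts in pup 1 (interval 8764 to 9136) and 17282 in pup 3 (interval 17025 to 17542). These were 163 and 497 CPM, and 342 and 1210 TPM. Pup 3 was the higher library on both scales, 3.54-fold by TPM and 3.04-fold by CPM, with a log2(TPM + 1) ratio of 1.82.

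The TPM of Malat1 rested on a short transcript. The full-length transcript (ENSMUST00000172812.2, 1 exon, 6983 nt), which corresponds to the well-known RNA, was assigned 3599 expected counts in pup 1 and 4138 in pup 3. The 485-nt transcript (ENSMUST00000173499.1), spliced from the 5′ end of the gene, was assigned 5221 and 13144 expected counts. In isoform percent, which is a transcript's share of the TPM of its gene, the 485-nt transcript held 94.72% and 98.27%, and the full-length one held 3.66% and 1.73%. Both libraries thus had the same leading transcript, 25.9-fold above the full-length form by TPM in pup 1 and 56.7-fold in pup 3. Because short transcripts weigh more, the deposited length of the gene, 725.71 nt in pup 1 and 597.70 nt in pup 3, was far below that of the full RNA.

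The 485-nt transcript joins an exon at chr19:5802238-5802671 to an exon at chr19:5801916-5801966 and skips the 271 bases between them. The 60 bases around its junction are shown because reads across it are the ones that only this transcript explains. Capitals mark bases of the second exon, and the sequence, like all those printed here, is that of the GENCODE M21 transcript on GRCm38, written 5′ to 3′ on the transcript's strand.
Malat1 485-nt transcript, bases 405 to 464: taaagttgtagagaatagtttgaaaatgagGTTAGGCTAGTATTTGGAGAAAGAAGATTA
The deposited tables hold no junction counts, so how many reads cross this site is not known, and the rest of the 485-nt transcript has the same bases as the full-length one.

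A feature on the opposite strand shares this stretch. Gm37376, an unspliced gene of 453 nt of the annotation class TEC, is complementary to bases 280 to 732 of full-length Malat1. Its expected counts were 2481 in pup 1 and 5304 in pup 3, or 168 and 523 TPM. No source used here gives the counting strand, and reads of Malat1 and of Gm37376 therefore cannot be told apart there. The 485-nt transcript and Gm37376 both lie in the first 757 nt of Malat1, which is 10.8% of its length, and held 67.4% of the summed counts of Malat1 and Gm37376 in pup 1 and 81.7% in pup 3. Put on the full length instead, all counts of Malat1 gave 31.1 and 87.6 TPM, and those of Malat1 with Gm37376 gave 39.8 and 115 TPM. Pup 3 stayed the higher library in each case, at 2.81-fold and 2.88-fold, while the level itself was far below the deposited one.

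The 3′ region of Malat1 ends in a genomically encoded A-rich tract in place of a poly(A) tail. RNase P cuts there, ahead of a tRNA-like element, and the A-rich tract folds back on U-rich motifs into a triple helix that protects the end. The long form of Neat1 is processed in the same way. Both regions are shown with the runs of 10 or more bases that they share in capitals (3 runs, of 13, 16 and 11 nt). They are bases 6583 to 6763 of full-length Malat1 (chr19:5795910-5796090, minus strand) and the last 120 bases of the long Neat1 form (chr19:5824708-5824827, minus strand).
Malat1, full length: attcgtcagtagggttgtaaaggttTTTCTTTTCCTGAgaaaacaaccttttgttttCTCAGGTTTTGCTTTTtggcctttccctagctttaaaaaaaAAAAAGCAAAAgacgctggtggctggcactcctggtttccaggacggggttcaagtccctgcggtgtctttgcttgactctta
Neat1, long form: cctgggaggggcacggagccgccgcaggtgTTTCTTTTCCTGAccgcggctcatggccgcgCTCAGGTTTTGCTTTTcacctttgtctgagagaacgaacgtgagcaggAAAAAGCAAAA
In Malat1 the A-rich tract holds an unbroken run of 12 A, and the richest window of 20 bases, starting at base 6674, holds 17 A. Of 134529 annotated transcripts of at least 200 nt, 5.70% have a window as rich. They were not matched to Malat1 in length, and a longer transcript has more windows. The annotated full-length transcript runs on past the tRNA-like element, and its last 40 bases hold the polyadenylation signal AATAAA. Of those annotated transcripts, 27.1% have AATAAA in the last 40 bases of their own sequence.

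A transcript of 656 nt (ENSMUST00000174808.1, 2 exons at the 3′ end of the gene) was assigned 128 counts in pup 1 and 0 in pup 3. It shares bases with the full-length transcript, so this split is an estimate. The other 2 listed transcripts, ENSMUST00000173314.1 and ENSMUST00000173523.1, had no counts in either library.

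Neat1, the paraspeckle scaffold, was the member that differed most between the pups. The gene (ENSMUSG00000092274.2, lincRNA) lies on the minus strand at chr19:5824708-5845478, on the same chromosome and strand as Malat1, with 3 listed transcripts of 1030 to 20771 nt. It had 305 expected counts in pup 1 (interval 272 to 341) and 3206 in pup 3 (interval 3096 to 3319). These were 5.56 and 92.1 CPM, a 16.6-fold difference, but 0.353 and 34.9 TPM, a 98.8-fold difference, with a log2(TPM + 1) ratio of 4.73. Neat1 was thus under 1 TPM in pup 1 although its 305 counts were well above the floor.

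The gap between the scales came from the transcript to which the reads were assigned. In pup 1 all 305 counts were placed on the long form of 20771 nt (ENSMUST00000173672.1). In pup 3, the short form of 3004 nt (ENSMUST00000174287.1) took 2855 counts and 98.30% of the gene's TPM, and the long form took 351 counts and 1.70%. By TPM the long form stood at 0.353 in pup 1 and 0.593 in pup 3, a ratio of 1.68, whereas the short form was listed at 0 in pup 1 and at 34.3 in pup 3. The short form, of 2 exons, lies within the 5′ part of the long one, of 1 exon (chr19:5842307-5845476). Reads in the bases they share match both and are divided by estimation. Only reads across the junction of the short form, or in the bases it skips, would tell them apart there, and no junction counts were given. The 0 in pup 1 is therefore an estimate too and gives no bound on the ratio of the short form. A short feature of 122 nt inside Neat1, Gm28006, had 0 and 26.9 counts. Put on the long form, all counts of Neat1 gave 0.353 and 5.41 TPM, a 15.3-fold difference in place of 98.8.

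The ends of the forms differ in sequence. The last 60 bases of the short form (chr19:5842307-5842366, minus strand) are shown because this is where the short form stops at a poly(A) site that the long form reads through. Capitals mark AATAAA, which ends 14 bases before the 3′ end.
Neat1, short form: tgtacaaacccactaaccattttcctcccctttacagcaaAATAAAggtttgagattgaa
The last 40 bases of the long form, printed above, hold no AATAAA. The window of 20 bases with most A held 17 A in the long form, from base 11362, and 12 A in the short one, from base 2076. A window as rich as that of the short form is found in 64.5% of the annotated transcripts, so it is not A-rich among them. How priming at such tracts, or at a tail, bears on the levels was not tested.

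**Figure D3:**
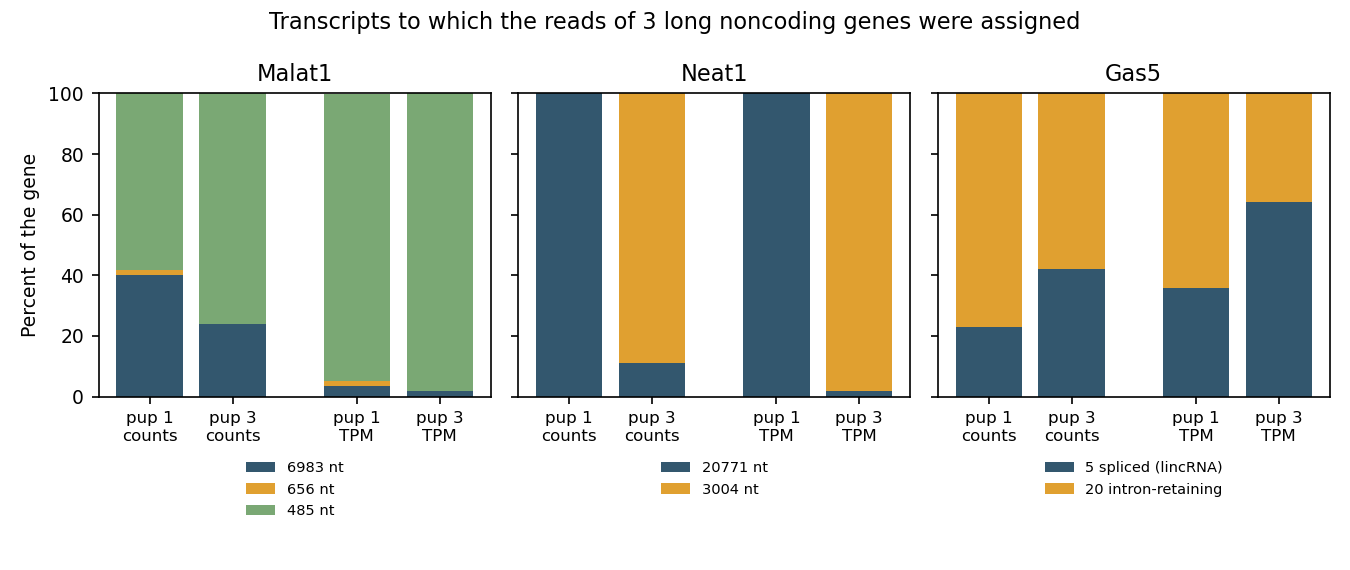
Transcripts to which the reads of Malat1, Neat1 and Gas5 were assigned, as percent of the gene's expected counts and as percent of its TPM, 1 bar per library and scale; for Malat1 and Neat1 the transcripts of at least 1% in either library are drawn, and for Gas5 the 5 lincRNA and 20 retained intron transcripts are summed. The leading transcript of Malat1 is the same in both pups, that of Neat1 is not, and the retained intron share of Gas5 is larger in pup 1.

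Gas5, the snoRNA host, was the steadiest member. The gene (ENSMUSG00000053332.9, processed transcript) lies on the plus strand at chr1:161034422-161038539 with 25 listed transcripts of 346 to 2556 nt. It had 15360 expected counts in pup 1 (interval 15118 to 15605) and 6873 in pup 3 (interval 6711 to 7037). These were 280 and 198 CPM, and 550 and 366 TPM. Pup 1 was the higher library, and pup 3 had 0.666 of its TPM and 0.705 of its CPM, with a log2(TPM + 1) ratio of -0.59.

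Its reads were spread over many transcripts. Of the 25 listed, 15 had at least 3 counts in pup 1 and 11 in pup 3, 10 had them in both, and 9 were under 3 counts in both. A transcript of 502 nt (ENSMUST00000162558.3) led in isoform percent in each library, at 19.40% and 32.43%, followed by one of 557 nt (ENSMUST00000159706.3) at 16.38% and 31.70%. Both are fully spliced lincRNA models, and their levels were close between the pups, at 107 and 119 TPM for the 502-nt transcript and 90.0 and 116 TPM for the 557-nt one. The gene as a whole was therefore lower in pup 3 although its leading transcripts were not.

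The 502-nt and 557-nt transcripts differ by their first exons, of 32 and 128 nt, and by an exon of 41 nt at chr1:161037124-161037164 that the 557-nt one lacks. The exon is shown in capitals with 15 bases on each side, since it separates the leading transcripts.
Gas5 502-nt transcript, bases 204 to 274: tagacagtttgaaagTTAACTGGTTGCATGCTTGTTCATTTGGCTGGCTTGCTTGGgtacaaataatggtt
The difference between the pups lay in transcripts with retained introns. The 20 transcripts of that class held 77.1% of the gene's counts in pup 1 and 57.9% in pup 3, and 64.1% and 35.8% of its TPM. Among them the transcript of 1614 nt had 4114 and 87.7 counts, that of 712 nt 1439 and 11.4, that of 636 nt 953 and 0, and that of 904 nt 806 and 7.50. In the other direction, the transcript of 600 nt had 11.5 and 609 counts and that of 403 nt 0 and 337. The longest, of 2556 nt, was counted in both, at 2284 and 2833. The models overlap through most of their exons, so the split among them is an estimate.

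No read was assigned to the snoRNAs that Gas5 carries. All 9 snoRNA genes annotated within it, Snord47, Snord78 and Snord80 among them, had 0 counts in both libraries. They are 60 to 84 nt long, under the 200 nt size limit of the RNA and under the 99 nt that the deposited effective length subtracts, so no level can be given for them. Zbtb37, a protein-coding gene that overlaps Gas5 on the opposite strand, had 0 counts in pup 1 and 609 in pup 3.

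Rn7sk was the member of highest mean level among the structural RNAs and the one that was higher in pup 1. The gene (ENSMUSG00000065037.1, misc_RNA) has 1 transcript of 331 nt at chr9:78175303-78175633 on the minus strand. It had 1074 expected counts in pup 1 (interval 1011 to 1140) and 130 in pup 3 (interval 109 to 154). These were 19.6 and 3.74 CPM, and 111 and 19.6 TPM. Pup 1 was 5.67-fold higher by TPM and 5.24-fold higher by CPM, with a log2(TPM + 1) ratio of -2.44.

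The 5′ part of 7SK RNA carries the GATC (GAUC in RNA) repeats at which HEXIM proteins bind. The first 120 bases (chr9:78175514-78175633, minus strand) are shown with GATC in capitals.
Rn7sk: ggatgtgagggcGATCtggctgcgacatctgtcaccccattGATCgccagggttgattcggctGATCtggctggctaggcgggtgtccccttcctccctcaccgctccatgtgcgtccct
This window holds 3 GATC, and 0.529% of the 134529 annotated transcripts have as many in their first 120 bases. GATC reads the same on both strands.

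Copies of 7SK are many in the genome, and they took few reads. Of 196 listed structural RNA genes with sequence like Rn7sk (itself included), 4 had counts in pup 1 and only Rn7sk had counts in pup 3. Gm26315, identical to Rn7sk over 99.6% of 238 aligned bases, had 39.9 counts in pup 1, and Gm24146 and Gm26035 had about 1 each (1.01 and 1.09). Summed over all copies, the level was 115 TPM in pup 1 and 19.6 TPM in pup 3, a 5.89-fold difference. The nearest genes, Ick and C920006O11Rik on the opposite strand, had 251 and 277 counts in pup 1 and 48.0 and 0 in pup 3.

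Rpph1 was lower in level but present in both libraries. The gene (ENSMUSG00000092837.1, ribozyme) has 1 transcript of 319 nt at chr14:50807449-50807767 on the minus strand. It had 113 expected counts in pup 1 (interval 93.1 to 136) and 328 in pup 3 (interval 293 to 365). These were 2.06 and 9.43 CPM, and 12.3 and 52.0 TPM. Pup 3 was 4.23-fold higher by TPM and 4.57-fold by CPM, with a log2(TPM + 1) ratio of 2.00. Among 18 listed structural RNA genes with sequence like Rpph1, only Rpph1 had counts. Parp2, a DNA repair gene that starts 74 nt away on the opposite strand, went the other way, with 3131 counts in pup 1 and 802 in pup 3, and Ccnb1ip1, which overlaps Rpph1 on its own strand, had none. Ttc5, on the other side of it, had 513 and 1.00 counts.

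Rmrp was not detected. The gene (ENSMUSG00000088088.1, ribozyme) has 1 transcript of 271 nt at chr4:43492788-43493058 on the minus strand and had 0 expected counts in each library. At its effective length, 3 counts would be 0.418 TPM in pup 1 and 0.609 TPM in pup 3, so a level above these was not seen. Rpph1, of like size and function, was above its own floor of 0.327 and 0.476 TPM by a wide margin in both. Bases 36 to 159 of Rmrp are complementary to a 594-nt transcript of Ccdc107, the overlapping gene on the opposite strand. That transcript also had 0 counts, while Ccdc107 as a gene had 1278 counts in pup 1 and 661 in pup 3, so no read of the shared stretch was placed on that transcript. Arhgef39, the nearest counted gene on the strand of Rmrp, had 0 counts in pup 1 and 2672 in pup 3.

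Rmrp whole, which was not counted, and the last 120 bases of Rpph1 (chr14:50807449-50807568, minus strand), which was, are shown. Capitals mark the stretch complementary to that Ccdc107 transcript in Rmrp, and the 20 bases with most A in Rpph1.
Rmrp: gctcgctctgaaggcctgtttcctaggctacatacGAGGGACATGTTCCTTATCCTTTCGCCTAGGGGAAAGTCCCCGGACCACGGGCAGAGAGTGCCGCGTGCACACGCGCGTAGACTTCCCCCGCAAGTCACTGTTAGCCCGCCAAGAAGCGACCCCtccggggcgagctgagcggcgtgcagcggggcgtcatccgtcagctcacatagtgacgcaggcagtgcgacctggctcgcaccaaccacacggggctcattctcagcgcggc
Rpph1: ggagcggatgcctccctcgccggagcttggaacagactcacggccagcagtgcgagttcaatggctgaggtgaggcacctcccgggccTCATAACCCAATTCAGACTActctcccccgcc
The structural RNAs were rich in G and C and poor in A. GC content was 58.0% in Rn7sk, 64.2% in Rmrp and 67.1% in Rpph1, against 42.5% in full-length Malat1. Their richest windows held 9, 7 and 8 A of 20 bases, and 89.9%, 99.4% and 97.0% of the 5627 annotated transcripts of 250 to 350 nt have a window at least as rich. Over the whole RNA, A made up 19.6% of Rn7sk, 18.8% of Rmrp and 16.9% of Rpph1. The poorest window was that of Rmrp, and the lowest A content that of Rpph1. Whether base content bears on counting was not tested.

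Protein partners of the members were detected unevenly. The lists used were chosen with earlier results of these libraries known and serve only to describe. Medians are log2 ratios of pup 3 over pup 1 on the log2(TPM + 1) scale, where all genes tested had -0.04. A second form, called with bounds, takes the log2 ratio of TPM without the added 1 and sets libraries under 3 counts to the level of 3 counts. Over the 8120 genes tested, 33.1% were at least 2-fold higher in pup 3 and 34.5% at least 2-fold lower. Of these 8120, 3875 were under 3 counts in a library. The counts for each list are to be read beside these shares.

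For Neat1, 6 of 12 paraspeckle protein genes were at 1 TPM or more in both libraries, 3 in 1 and 3 in neither. Hnrnpk, an abundant RNA-binding protein, stood at 455 and 496 TPM, Nono at 71.2 and 101, Tardbp at 53.9 and 77.3 and Ewsr1 at 53.4 and 47.1. These 4 genes were less than 2-fold apart between the pups, unlike Neat1 itself. Of 9 genes tested, 1 passed 2-fold in favour of pup 3 and 2 in favour of pup 1, with a median of 0.02 in both forms. Sfpq, which with Nono forms the core of the paraspeckle, stood at 9.91 and 0.689 TPM, and Pspc1 had no counts in either pup. Sfpq and Pspc1 were named after their values were seen.

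For Malat1, 9 of 13 nuclear speckle protein genes were at 1 TPM or more in both libraries and 4 in 1. The splicing factors led: Srsf3 stood at 192 and 238 TPM, Srsf5 at 238 and 120 and Srsf7 at 70.7 and 135. Rnps1 was absent from pup 1 and at 120 TPM in pup 3. Of the 13, all tested, 7 were at least 2-fold higher in pup 3 and 1 was lower, with a median of 1.51 (1.60 with bounds). Son and Srrm2, the scaffold proteins of the speckle, were among those higher in pup 3, Son at 9.50 and 33.8 TPM and Srrm2 at 14.0 and 44.5 TPM. The 1 that was lower was Srsf1, at 39.9 and 0.286 TPM. Son, Srrm2 and Srsf1 were named after their values were seen.

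For Rn7sk, the genes of the 7SK particle and P-TEFb were patchy, with 3 of 10 at 1 TPM or more in both libraries, 5 in 1 and 2 in neither. Larp7, the protein that stays bound to 7SK RNA, stood at 43.9 TPM in pup 1 and had no counts in pup 3. Ccnt1, the cyclin of P-TEFb, stood at 41.7 and 0.0212 TPM, and Hnrnpa1 and Hnrnpa2b1, which bind 7SK when P-TEFb leaves it, at 178 and 62.6 and at 181 and 463. Of 8 tested, 6 were at least 2-fold lower in pup 3 and 2 were higher, with a median of -2.24 (-3.58 with bounds), and 5 of the 8 were under 3 counts in a library. Hexim2, a partner of P-TEFb in the particle, was counted in pup 3 only, at 40.3 TPM and 2092 counts, and was named after its values were seen. Hexim1 and Mepce had no counts in either.

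For Rpph1 and Rmrp, 1 of 11 protein subunit genes of RNase P and RNase MRP was at 1 TPM or more in both libraries, 6 in 1 and 4 in neither. Rpp25l and Rpp30 were counted in pup 1 only, at 89.3 and 68.8 TPM, and Pop5 and Rpp40 in pup 3 only, at 83.6 and 46.0 TPM. The gene found in both was Rpp21, at 38.8 and 4.96 TPM. Of 7 tested, 5 were at least 2-fold lower in pup 3 and 2 were higher, with a median of -2.74 (-4.82 with bounds), and 6 of the 7 were under 3 counts in a library. Such patchiness was common: 14.9% of all protein-coding genes listed reached 1 TPM in both libraries, and 46.3% of those that reached it in either.

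Factors of the promoters that drive such small RNAs, and the La protein that binds RNA polymerase III transcripts, were at 1 TPM or more in both libraries for 2 of 11, in 1 for 3 and in neither for 6. Ssb, which encodes La, stood at 78.3 and 64.4 TPM. Snapc3 stood at 3.24 and 52.8 TPM, Snapc5 at 0.0321 and 88.6, and Brf2 was absent from pup 1 and at 18.9 TPM in pup 3. Of 6 tested, 4 were at least 2-fold higher in pup 3 and none was lower, with a median of 3.93 (6.21 with bounds). Of these 6, 3 were under 3 counts in a library.

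Of 13 other snoRNA host genes matched from 18 listed, 6 were at 1 TPM or more in both libraries, 3 in 1 and 4 in neither. Snhg3 stood at 129 and 37.1 TPM, Snhg6 at 55.7 and 94.3, and Snhg15 at 35.9 and 51.6. Snhg5 stood at 51.8 TPM in pup 1 and had no counts in pup 3. Of 9 tested, 5 were at least 2-fold lower in pup 3 and none was higher, with a median of -1.47 (-1.79 with bounds). Of these 9, 3 were under 3 counts in a library. Gas5 was the highest of these hosts in both libraries. Of the 10 decay factor genes, 1 was at 1 TPM or more in both libraries, 3 in 1 and 6 in neither, and of 4 tested 2 were higher and 2 lower, with a median of 0.94 (3.73 with bounds). Of these 4, 3 were under 3 counts in a library, so both medians rest mostly on genes missing from 1 pup. Upf1, the central helicase of that pathway, had no counts in pup 1 and 10.1 TPM in pup 3.

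**Figure D4:**
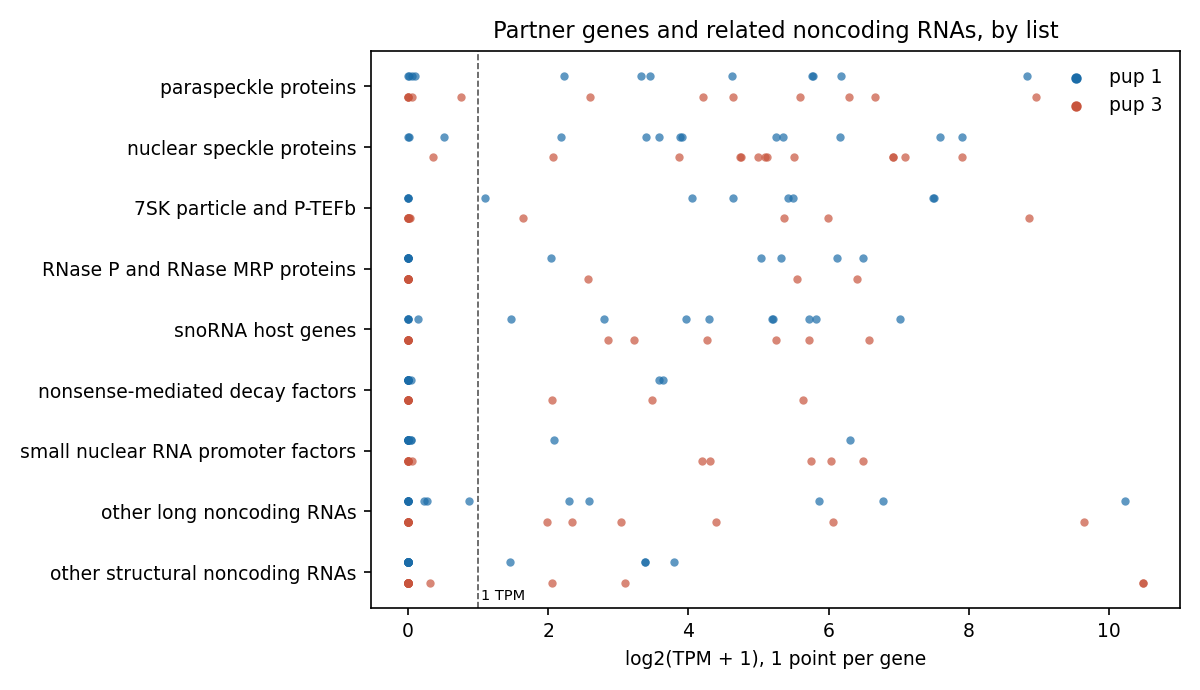
Levels of the genes of each partner list and of the other noncoding RNAs, as log2(TPM + 1), with 1 point per gene and library (blue pup 1, red pup 3) and a dashed line at 1 TPM. Paraspeckle and speckle protein genes lie mostly above the line, and most genes of the promoter factor, decay factor and other structural RNA lists lie at or near 0.

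Among other long noncoding RNAs, the imprinted H19 led at 1191 and 797 TPM, above every member in pup 1 and below Malat1 in pup 3. Of 14 matched from 16 listed, 3 were at 1 TPM or more in both libraries, 5 in 1 and 6 in neither. Tug1 stood at 108 and 2.98 TPM, Meg3 at 0.171 and 65.9, and Mir22hg at 56.9 and 0. Xist was at 0 TPM in pup 1, from 1.09 counts, and at 7.21 TPM in pup 3, from 3649 counts. Tsix was alike in the pups, at 3.90 and 4.07 TPM. Xist and Tsix were named after their values were seen. Whether the level of Xist bears on the unrecorded sex of the pups was not tested. Of 9 tested, 3 were at least 2-fold higher in pup 3 and 3 were lower, with a median of -0.27 (-0.58 with bounds). Of these 9, 4 were under 3 counts in a library. Differences as large as those of Neat1 and Rn7sk were thus also found among these genes.

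Other structural RNAs were mostly without counts. Of 20 listed, 3 were at 1 TPM or more in both libraries, 2 in 1, and 15 in neither, among them Terc and the RNase P-like genes Rprl1, Rprl2 and Rprl3. All 15 had no counts, and 7 of them are shorter than the 200 nt size limit of the RNA. A count of 0 does not show the absence of any of the 15. The highest were Rn7s1 and Rn7s2, identical copies of 7SL, the RNA of the signal recognition particle. Each was assigned 79.5 counts in pup 1 and 8227 in pup 3, or 9.48 and 1429 TPM, so that in pup 3 each was above every member. The U2 gene Rnu2-10 (191 nt) stood at 12.9 and 7.59 TPM, and Rn7s6 had 0 and 3.17 TPM. Of 3 genes tested in this list, 2 were at least 2-fold higher in pup 3 and none was lower, with a median of 7.09 (7.24 with bounds). The 2 genes were Rn7s1 and Rn7s2, between which the same reads were shared out evenly. They count as 1 measurement, and the median is its ratio. Rn7sk, Rn7s1 and Rpph1 are all made by RNA polymerase III, and Rn7sk was lower in pup 3 while the others were higher.

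The genes closest to each member in level over the 2 libraries were of many kinds. Likeness was the distance on log2(TPM + 1), and with 2 libraries it only says that levels were alike. Usmg5 (399 and 1098 TPM), Cox6b1 and H3f3a lay closest to Malat1, and Lrp5 (0.343 and 33.9 TPM), Acbd5 and Taf9 to Neat1. Gpc3 (534 and 374 TPM), Gm10443 and mt-Nd6 lay closest to Gas5, Hmox1 (112 and 17.7 TPM), Icam4 and Frrs1 to Rn7sk, and Appl1 (12.4 and 54.0 TPM), Igfals and Stag2 to Rpph1. The distances of the closest genes were 0.26 for Malat1, 0.04 for Neat1, 0.05 for Gas5, 0.13 for Rn7sk and 0.05 for Rpph1.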

How the data were processed

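Gene and transcript tables of RNA-seq from 2 newborn livers were used. A mirVana kit and a SmartSeq protocol were used to prepare the RNA and the libraries, per the labels' protocols. Per the deposited notes, values refer to mm10 with GENCODE M4 genes. Aligner, quantifier and counting strand: not given in the sources used here. Column names match those of RSEM.

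The authors deposited expected counts, estimates that share out ambiguous reads. In the deposited tables TPM divides by effective length, which the authors set 99 nt under the listed length, an effect that inflates short RNAs. The deposited posterior mean TPM, treated as a score, served as an alternative. The deposited isoform percent is a transcript's share of its gene's TPM.

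TPM was rescaled to 1000000 after dropping the spike-ins. GENCODE M21 (GRCm38) gave names, types, coordinates and sequences by identifier (42462 of 43346 matched). Detection was set at 1 TPM, ratios used log2(TPM + 1), which understates the differences of low genes, and the background was genes whose expected counts averaged 10 or more. Similar features were found with blastn 2.17.0. Precision rests on depths of 56959836 and 35973980 expected counts. The members and gene lists were chosen with earlier results of these data known. The text names every member, its transcripts of at least 1% in a library (those of Gas5 in part), up to 4 leading genes per list, the nearest gene on each side (those with counts) and the 3 genes of closest level; others are said to be named after their values were seen, or are named as having no counts. Some genes that this rule takes are not reported here. No test between groups was made. Alternatives were other units, thresholds, pseudocounts, filters, thinning, each library alone, and other scalings (spike-ins, DESeq2 size factors and edgeR TMM factors, the last pair on rounded expected counts). Ratios were checked on simulated data. Tools were edgeR 4.0.16 and DESeq2 1.42.0 in R 4.3.3, and pandas 2.3.3, numpy 2.4.6, scipy 1.17.1 and matplotlib 3.10.9 in Python 3.11.15.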

Additional observations from a re-analysis of the deposited data

How the results depend on the processing

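The main limit is that 2 libraries of 13 pg each were available, so no spread within a pup is known, and the depth of a library does not show how many molecules entered it. The level per length of Malat1, Neat1 and Gas5 depends on the transcript to which reads were assigned. The 6 genes held 0.135 ± 0.0472% of TPM, but 0.0635% of counts without length correction, and 0.0283% of TPM with all counts of these 3 genes put on their longest transcript (an alternative added after seeing the data); both moves follow from the lengths used. With 1 library left out in turn, the share was 0.102% to 0.168%. The number of members detected was 4 or 5 in all 11 alternatives, which include other thresholds and units and each library alone, and 4 members were at least 2-fold apart in all 13. The direction of each log2 ratio of the 5 counted members, and its side of 2-fold, was the same in all 11 alternatives, with ranges of 1.46 to 2.02 for Malat1, 2.12 to 6.27 for Neat1, -0.85 to -0.38 for Gas5, -2.70 to -2.03 for Rn7sk and 1.48 to 2.19 for Rpph1. Not every alternative could move a member. The filters, counted among the 13 and not the 11, leave every ratio as it was. Of the 11, leaving out tRNA features changed no ratio. Keeping only transcripts of 200 nt or more hardly changed any (1.81958 in place of 1.81963 for Malat1). Adding Gm37376 to Malat1 and copies to Rn7sk leaves the ratios of Neat1, Gas5 and Rpph1. The longest-transcript setting leaves those of Rn7sk and Rpph1. The background of 67.6% was 12.8% with no filter, 74.0% with a pseudocount of 0.1 TPM and 49.6% with 10 TPM. Scaling by TMM, DESeq2 size factors and spike-ins shifted the median log2 ratio of all genes by -0.21, -0.21 and 0.18. No paired analysis was possible because the study has 1 group, so no groups share replicate numbers.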
